A study of Mus musculus with 24 samples.

Results

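Where the transcription factor MEF2C and the linker histone H1.0 lay relative to each other was read from 4 peak lists of mouse cells at day 1 of cardiac reprogramming, taken from control cells that had received siControl. The rule took both MEF2C lists and both H1.0 lists of that state on chromosomes 1 to 19 and X, so 4 of the 16 lists in use were members, with 42698 MEF2C peaks and 754951 H1.0 peaks of 1662467 peaks in all. The series lists 24 samples, and 8 IgG samples were not analysed here. The cells were iMGT-Myh6-eGFP-MEF, a mouse embryonic fibroblast line in which doxycycline switches on MGT, the cardiac factors Mef2c, Gata4 and Tbx5, and which carries an eGFP reporter of Myh6. All 4 samples were plated at 300000 cells per well, received siControl, were given 1 µg/mL doxycycline on the following day and were collected at day 1, with about 250000 cells per condition. The other groups used for comparison were MEF2C after siJunb (n = 3) and siH1f0 (n = 3) in the same induced state, H3K9me3 under siControl at day 1 (n = 2), and H1.0 in the ground state (n = 2), which had neither siRNA nor doxycycline. MEF2C was therefore induced from a transgene in every cell state in which it was mapped, and the endogenous and induced proteins were not told apart. The replicates are labelled biological, with no word on whether cultures or days were repeated, so any spread between them may be technical. No expression was measured, so the fibroblast identity of the cells was not checked by marker genes.

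MEF2C is a MADS-box transcription factor that binds a short A/T-rich site, drives muscle and heart genes, and is held in check by the class IIa histone deacetylases, which bind it directly. H1.0 is a linker histone: it sits where DNA enters and leaves the nucleosome, favours compact chromatin, and is made outside of DNA replication, so that it builds up in cells that divide slowly. CUT&RUN maps such proteins by tethering a nuclease to an antibody and sequencing the DNA that is cut free. A peak in one of these lists is a stretch of the genome with continuous signal above the threshold of the peak caller. Its maximum is the stretch inside the peak where signal was highest.

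Sequences of promoters that carried both a MEF2 site and MEF2C peaks are printed as examples, with or without H1.0 on them. Such promoters were a minority: the site searched for was in 6.22% of the windows that lay whole under both MEF2C lists. The 300-base promoter windows of RefSeq (GRCm38.p6, the assembly of mm10) were searched for CTANNNNTAG, which reads the same on both strands, and 64 windows of 59 genes held it in the 250 bases before the start while lying whole under a peak of both MEF2C lists. The first 4 below are the genes among them that belong to the gene lists used here, and the last 3 were chosen after their values were seen, to show a window with no H1.0 and the 2 windows touched by the shorter H1.0 list. Each is the 100 bases around the site, 5′ to 3′ on the strand of the gene, and capitals mark CTANNNNTAG or the AP-1 motif TGANTCA.
Hdac9, chr12:34528890-34528989, minus strand: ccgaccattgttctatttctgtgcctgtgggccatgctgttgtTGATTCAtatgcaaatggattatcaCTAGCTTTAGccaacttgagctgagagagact
Jun, chr4:95052223-95052322, minus strand: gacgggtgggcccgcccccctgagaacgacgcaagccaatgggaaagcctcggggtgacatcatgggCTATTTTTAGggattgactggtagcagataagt
Atf3, chr1:191183334-191183433, minus strand: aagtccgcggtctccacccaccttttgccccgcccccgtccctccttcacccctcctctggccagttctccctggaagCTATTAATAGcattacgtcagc
Hdac5, chr11:102230173-102230272, minus strand: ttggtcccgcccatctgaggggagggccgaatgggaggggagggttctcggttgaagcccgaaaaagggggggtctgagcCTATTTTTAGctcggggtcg
Lsmem1, chr12:40199319-40199418, minus strand: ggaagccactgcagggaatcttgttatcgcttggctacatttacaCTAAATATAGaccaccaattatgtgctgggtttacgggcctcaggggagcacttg
Lrrc14b, chr13:74364001-74364100, minus strand: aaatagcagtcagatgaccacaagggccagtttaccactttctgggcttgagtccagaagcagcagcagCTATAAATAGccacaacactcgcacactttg
Ankrd34a, chr3:96596524-96596623, plus strand: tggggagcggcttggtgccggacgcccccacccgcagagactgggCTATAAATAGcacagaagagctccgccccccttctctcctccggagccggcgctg

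Hdac9 encodes a class IIa deacetylase that binds and represses MEF2 proteins. Its printed stretch lay whole under the longer H1.0 list, with 100 of 100 bases covered, and it also holds an AP-1 motif. The MEF2C peak there, 34526750 to 34530295 on chromosome 12, had a maximum signal of 90 in replicate 1 and 297 in replicate 2. Jun and Atf3, AP-1 family genes, had maxima of 25 and 87 and of 23 and 62. The printed stretch of Jun had 0 of its bases under H1.0 although 84.0% of the MEF2C region around it was covered, and that of Atf3 had 42. Hdac5, another class IIa deacetylase gene, likewise had 0 bases of the stretch under H1.0 inside a region covered over 70.7%. Lsmem1 had no H1.0 in its window in either list. Lrrc14b and Ankrd34a had 100 of 100 bases under the shorter H1.0 list and 0 under the longer, so that the 2 H1.0 lists were at odds at both promoters. In 6 of the 7 stretches, all but that of Hdac9, the middle bases of the MEF2 site were all A or T.

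Over all 21045 listed windows of protein-coding genes, 738 (3.51%) held CTANNNNTAG, against 72 of the 1158 windows that lay whole under both MEF2C lists (6.22%). The narrower MEF2 consensus, with only A or T in the middle, was in 104 windows (0.494%) and in 25 of the 1158 (2.16%). TGANTCA was in 7.04% of all windows and in 6.04% of those under both MEF2C lists. Of the 1158 windows, 809 touched the longer H1.0 list alone, and 6.67% of these held CTANNNNTAG. The share was 6.75% among the 237 windows that touched neither H1.0 list. None of the 103 windows that touched both H1.0 lists held it. These are counts of letters in promoter windows, several windows of a gene can overlap, and no start was listed for chromosome 18, so its promoters were not used here.

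The 4 lists differed strongly in size. MEF2C replicate 1 had 14912 peaks over 15.5 Mb with a median width of 943 bp, and MEF2C replicate 2 had 27786 peaks over 63.2 Mb with a median width of 1981 bp. H1.0 replicate 1 had 722039 peaks over 911 Mb, 35.4% of the 2571 Mb considered, whereas H1.0 replicate 2 had 32912 peaks over 28.5 Mb, 1.11%. Sequencing depth in the labels was the same for each sample, and the number of reads aligned is not given in the sources used here. In the labels, IgG siControl replicate 1 carries the name of the list used here as H1.0 replicate 1, and IgG siControl replicate 2 carries the name of the list used as MEF2C replicate 2. What that entry means is not stated, so every result is given per list and none rests on an average of the 2 H1.0 lists. The MEF2C lists shared most of the shorter one: 83.2% of replicate 1 peaks touched replicate 2, against 40.7% in the other direction. Of the peaks of H1.0 replicate 2, 82.6% touched replicate 1, where a mean of 59.8% was reached when they were shifted along the chromosomes, a ratio of 1.38. In the other direction 3.82% of replicate 1 peaks touched replicate 2, against 2.91% after shifting, a ratio of 1.31. For MEF2C peaks, given below, the ratios were 1.38 and 1.23 on H1.0 replicate 1 and 3.18 and 2.24 on H1.0 replicate 2. On H1.0 replicate 1, the ratio of H1.0 replicate 2 was thus close to that of MEF2C replicate 1 and above that of MEF2C replicate 2. Ratios on H1.0 replicate 1 are capped by its high background. In the other direction, 722039 peaks are set against 32912, which limits how many can touch. The ratios therefore do not rank how well the lists agree.

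MEF2C peaks touched H1.0 peaks more often than shifted MEF2C peaks did, in all 4 pairs of lists. Against H1.0 replicate 1, 84.0% of MEF2C replicate 1 peaks and 90.3% of replicate 2 peaks shared at least 1 bp with an H1.0 peak. Against H1.0 replicate 2, the shares were 8.65% and 9.81%. The background was the share reached when all MEF2C peaks of a chromosome are moved together around it, averaged exactly over every possible shift, which keeps peak widths and spacing. It was 60.9% and 73.3% for H1.0 replicate 1, and 2.72% and 4.38% for H1.0 replicate 2. The ratio of observed to background was 1.38 and 1.23 for H1.0 replicate 1 (mean 1.31 ± 0.10, SD, n = 2 MEF2C lists). For H1.0 replicate 2 it was 3.18 and 2.24 (mean 2.71 ± 0.66, SD, n = 2). Over 99 evenly spaced shifts, the highest shares were 66.9% and 78.9% for H1.0 replicate 1 and 3.49% and 5.37% for H1.0 replicate 2, and the observed share lay above them in each pair. With 2 lists of each kind these ratios are descriptions and carry no p-value.

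**Figure D1:**
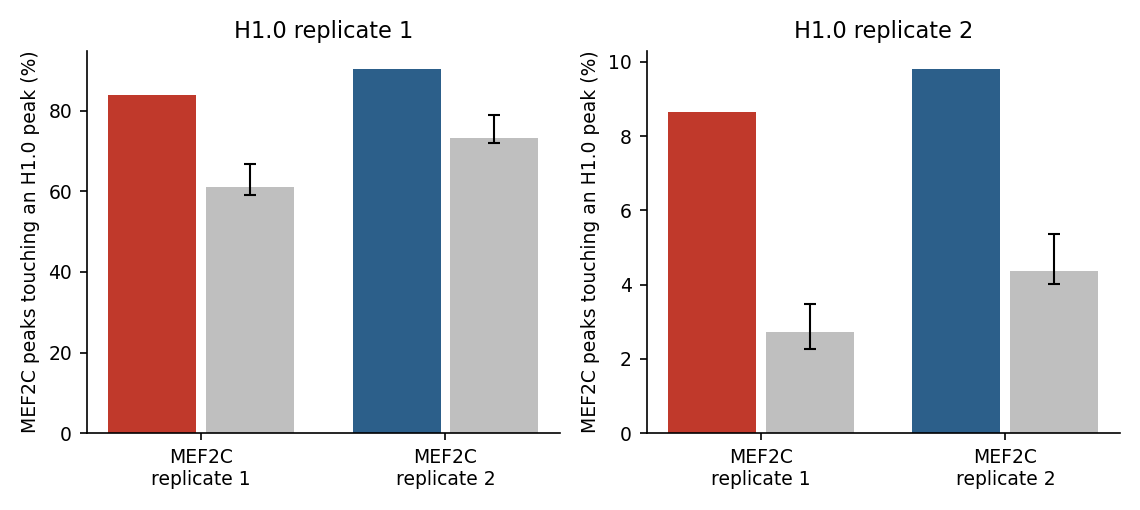
Percent of MEF2C peaks (y axis) that touch an H1.0 peak, for MEF2C replicate 1 (red) and replicate 2 (blue), left for H1.0 replicate 1 and right for H1.0 replicate 2. Grey bars are the mean over all circular shifts and black lines the lowest and highest of 99 evenly spaced shifts; the observed shares of 84.0%, 90.3%, 8.65% and 9.81% all lie above those lines.

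Because wide peaks touch other peaks more readily, the same question was asked of the maximum of each MEF2C peak, a single position. The MEF2C maximum lay inside an H1.0 replicate 1 peak for 70.3% of replicate 1 and 71.1% of replicate 2 peaks, where the covered share of the chromosomes holding these peaks gave 38.5% and 38.3%. The ratio was 1.84 ± 0.018 (SD, n = 2 MEF2C lists). Inside H1.0 replicate 2 lay 5.67% and 4.87% of the maxima against 1.25% and 1.25%, a ratio of 4.22 ± 0.45 (SD, n = 2). The 2 MEF2C lists, although their peaks differ in width, thus gave nearly the same shares for the longer H1.0 list. When H1.0 replicate 1 was limited to its 10979 strongest peaks, which cover the same 28.5 Mb, the ratio for maxima was 7.13 and 6.65. This limit changes the length and the strength of the list at once, and their parts cannot be told apart. Of those 10979 peaks, 21.3% touched H1.0 replicate 2.

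The excess of H1.0 was narrow and centred on the MEF2C maximum. H1.0 replicate 1 covered 70.3% and 71.1% of the positions at the maximum, 59.4% and 59.1% at 0.5 kb to either side, 48.2% and 48.0% at 1 kb, and 44.9% and 45.5% at 5 kb. At 50 kb it still covered 45.6% and 45.8%, above the share of 38.5% and 38.3% for the same chromosomes. H1.0 replicate 2 covered 5.67% and 4.87% of positions at the maximum, 3.95% and 3.41% at 0.5 kb, 2.11% and 1.98% at 5 kb, and 1.89% and 1.88% at 50 kb. There was thus a broad part, in which neighbourhoods of MEF2C had more H1.0 peaks than the chromosome as a whole, and a local part within about 1 kb. Stretches in which no peak can be called were not taken out of the chromosome share. How much of the broad part goes with them was not tested. Set against the positions 5 kb away, the local part was 1.56-fold for H1.0 replicate 1 and 2.57-fold for H1.0 replicate 2 (means of 2 MEF2C lists).

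**Figure D2:**
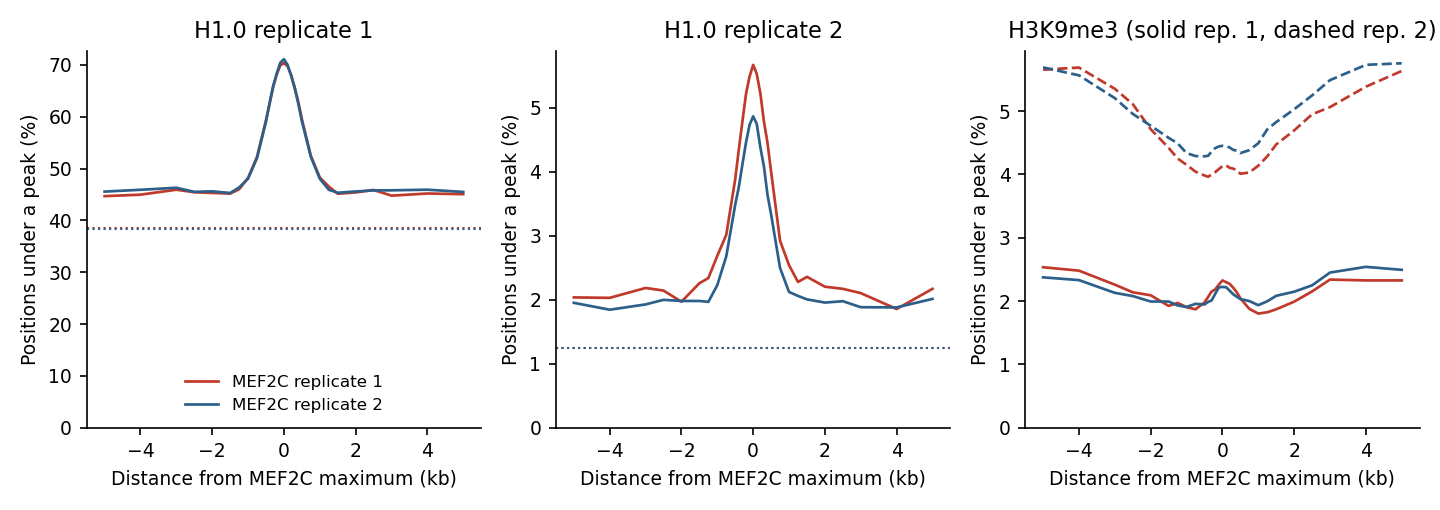
Percent of positions under a peak (y axis) by distance from the MEF2C maximum in kb (x axis), for MEF2C replicate 1 (red) and replicate 2 (blue), with H1.0 replicate 1 at left, H1.0 replicate 2 in the middle and the 2 H3K9me3 lists (solid replicate 1, dashed replicate 2) at right. Dotted lines in the H1.0 panels give the covered share of the same chromosomes; H1.0 rises from 44.9% and 45.5% at 5 kb to 70.3% and 71.1% at the maximum, and from 2.11% and 1.98% to 5.67% and 4.87%, while H3K9me3 at the maximum is no higher than at 5 kb.

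H3K9me3, a histone mark of silent heterochromatin mapped in the same day 1 control state, went the other way. Its 2 lists covered 2.33% and 2.22% (replicate 1) and 4.13% and 4.45% (replicate 2) of MEF2C maxima, and the ratios to the covered share of the chromosomes, averaged over the MEF2C lists, were 0.478 and 0.283. The H1.0 ratios of 1.84 and 4.22 and those of H3K9me3 did not overlap. With 2 lists against 2 the exact two-sided permutation test gave p = 0.333, the smallest it can give. H1.0 of the ground state, before MEF2C was induced, gave ratios of 2.21 and 1.58 at the same day 1 MEF2C maxima. They overlapped the day 1 values (exact permutation p = 0.667), and covered shares differed widely, 3.61% and 43.1% of the chromosomes for the ground-state lists. Positions bound by MEF2C at day 1 were therefore also richer in H1.0 peaks in cells that had not been induced.

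Maxima of the 2 proteins were close as well. A maximum of H1.0 replicate 1 lay within 100 bp of 16.2% and 17.4% of MEF2C maxima, against 5.95% and 5.93% over the shifts. For H1.0 replicate 2 the shares were 1.65% and 1.44% against 0.287% and 0.288%. The excess shrank with distance: at 500 bp it was 1.86- and 1.89-fold for replicate 1, down from 2.73- and 2.93-fold at 100 bp, and for replicate 2 it was 4.12- and 3.51-fold, down from 5.75- and 5.02-fold.

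Distances between peak edges were measured over all MEF2C peaks, those that touch counting as 0. The median distance to H1.0 replicate 1 was 0 bp, observed and shifted. To H1.0 replicate 2 it was 19585 and 19618 bp, where the lowest median over the evenly spaced shifts was 26736 and 26362 bp. Of MEF2C peaks, 35.3% and 35.0% lay within 10 kb of an H1.0 replicate 2 peak, against 23.1% and 24.0% over the shifts. Peaks that did not touch were then taken alone. Of the 13622 and 25060 that did not touch H1.0 replicate 2, 29.1% and 27.9% lay within 10 kb of it, against 20.9% and 20.5% of the peaks left untouched over the shifts. The 2390 and 2687 that did not touch H1.0 replicate 1 had median gaps of 894.5 and 919 bp. Within 5 kb of that list lay 88.9% and 93.6% of them, against 89.4% and 86.2% over the shifts, so that MEF2C replicate 1 showed no excess there and replicate 2 a small one. The largest gap was 77315 bp in replicate 1 and 77142 bp in replicate 2.

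Stronger MEF2C peaks lay in H1.0 replicate 1 more often. The deposited maximum signal is the authors' value, and it was used only to rank peaks within a list. In 10 equal groups by rank, the share of MEF2C replicate 1 maxima inside H1.0 replicate 1 rose at every step, from 61.3% in the weakest group to 78.0% in the strongest. In MEF2C replicate 2 it went from 63.8% to 78.4%, with 1 step down, from 68.7% in the third to 68.3% in the fourth group. The ratio to the covered share went from 1.57 to 2.00 and from 1.58 to 2.04. The strongest and weakest groups differed by 15.6 ± 1.5 percentage points (SD, n = 2 MEF2C lists). With H1.0 replicate 2 no such slope was seen. The groups ranged from 4.56% to 7.51% in MEF2C replicate 1 and from 4.14% to 6.12% in replicate 2, with the strongest group highest in both and the second highest being the weakest group in MEF2C replicate 1 and the ninth group in replicate 2. Ranked by total in place of maximum signal, the strongest group exceeded the weakest by 3.20 points on H1.0 replicate 2 (mean of the 2 MEF2C lists), against 0.744 points by maximum.

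**Figure D3:**
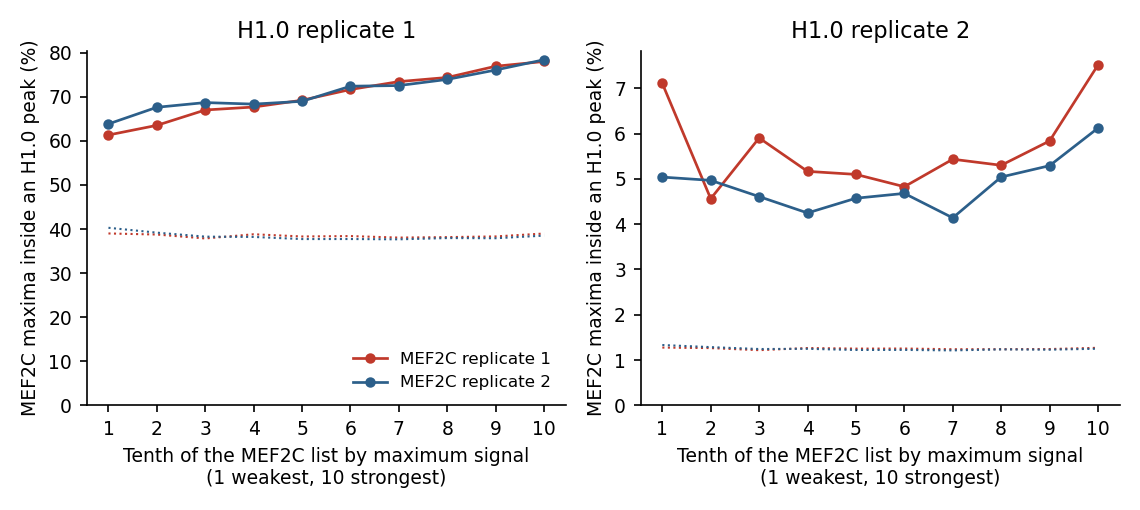
Percent of MEF2C maxima inside an H1.0 peak (y axis) in 10 equal rank groups of each MEF2C list by maximum signal (x axis, 1 weakest and 10 strongest), red for MEF2C replicate 1 and blue for replicate 2; dotted lines are the covered share of the same chromosomes. The left panel climbs from 61.3% and 63.8% to 78.0% and 78.4%, and the right panel stays between 4.14% and 7.51%.

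Seen from H1.0, stronger peaks met MEF2C more often, although most of the strongest did not. Among 10 equal groups of H1.0 replicate 1 peaks, the weakest touched MEF2C replicate 1 less often than after shifting, 0.578% of peaks and a ratio of 0.524, and the strongest touched it in 6.87% of peaks at a ratio of 3.17. Against MEF2C replicate 2 the ratio went from 0.624 to 2.57. Widths differ between these groups, with medians of 889 and 1867 bp in the weakest and strongest, and the shifted background keeps them. In H1.0 replicate 2 the ratio went from 2.35 to 5.97 against MEF2C replicate 1 and from 1.72 to 3.56 against replicate 2. In H1.0 replicate 1 the median strength was at percentile 81.6 and 65.8 of the list with MEF2C and 43.6 without. As maximum signals these are 8 and 7 against 6. The peaks with MEF2C were also wider, with medians of 1521 and 1344 bp against 964 and 959 bp, and these medians were not set against shifting. In H1.0 replicate 2 the median strength was at percentile 54.7 with and without MEF2C, a maximum signal of 5 in both. Signals are whole numbers and many peaks tie at 5, so these 2 medians cannot show equal strength. The weakest peaks of the longer H1.0 list thus met MEF2C less often than after shifting, and the weakest of the shorter list more often.

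The ratio of MEF2C maxima on H1.0 was above 1 in every class of gene position. Of MEF2C replicate 1 peaks 15.7% lay within 1 kb of a listed start of a protein-coding gene, 17.3% elsewhere within 5 kb of a gene end, 37.1% elsewhere inside a gene and 29.8% outside genes. In replicate 2 the shares were 19.5%, 17.1%, 35.8% and 27.6%. Maxima near starts lay in H1.0 replicate 1 in 67.0% and 67.3% of cases, those inside genes in 73.4% and 73.4%, and those outside genes in 70.4% and 73.2%. The lowest ratio of any class was 1.72 and the highest 1.92. With H1.0 replicate 2 the ratios ran from 3.45 to 5.13, lowest near gene ends in both MEF2C lists and highest outside genes in both. Finer steps of distance from a listed start showed a dip beside it. In MEF2C replicate 1, 71.3% of maxima up to 250 bp from a start lay in H1.0 replicate 1, 60.7% of those at 500 to 1000 bp and 72.5% of those beyond 50 kb. In MEF2C replicate 2 these shares were 69.6%, 64.8% and 74.1%. For H1.0 replicate 2 the shares were 7.14% and 5.82% up to 250 bp, 4.32% and 3.51% at 500 to 1000 bp, and 3.93% and 3.83% at 1000 to 5000 bp.

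At gene starts the presence of MEF2C went with more H1.0. A window of 1 kb to either side of the start touched H1.0 replicate 1 in 89.6% of 2852 windows with a MEF2C replicate 1 peak and in 78.3% of 18193 without, where shifted H1.0 gave 73.5% and 69.8%. For MEF2C replicate 2 the shares were 88.5% of 6873 and 75.7% of 14172. Windows with MEF2C touched H1.0 replicate 2 in 11.1% and 9.59% of cases, and windows without in 6.04% and 5.33%. H3K9me3 went the other way: its replicate 1 touched 0.701% and 0.902% of the windows with MEF2C and 4.43% and 5.39% of those without. Position by position, starts with both MEF2C lists in the window had H1.0 replicate 1 over 57.7% of start positions and 60.2% at 250 bp before, and fell to 39.0% at 2 kb before. Starts with no MEF2C list had 42.0% at the start and 39.2% at 2 kb before, so the hump was nearly missing there. The hump in H1.0 replicate 2 was 5.45% at starts held by both MEF2C lists, 4.04% at those held by 1 and 1.98% at those held by none.

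**Figure D4:**
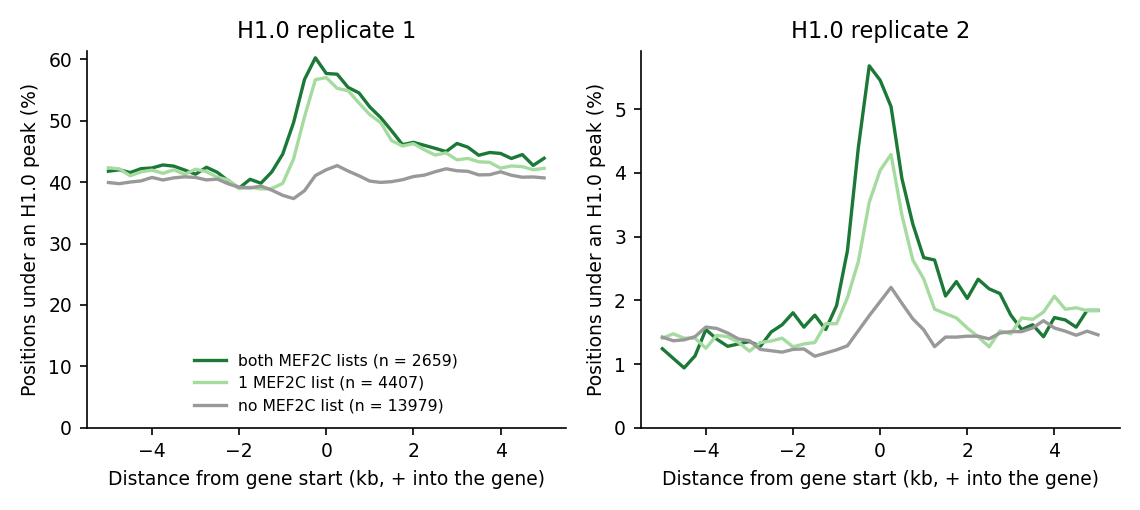
Percent of positions under H1.0 replicate 1 (left) and replicate 2 (right) by distance from listed gene starts in kb (x axis, positive into the gene), for 2659 starts with a peak of both MEF2C lists within 1 kb (dark green), 4407 with 1 list (light green) and 13979 with none (grey). At the start itself the lines stand at 57.7%, 57.0% and 42.0% at left and at 5.45%, 4.04% and 1.98% at right.

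Chromosomes differed in how much of them lay under H1.0 peaks. The share of MEF2C maxima inside those peaks tended to rise with that cover, as its background does by construction. H1.0 replicate 1 covered from 18.3% of chromosome X to 50.3% of chromosome 10, with a median of 33.1% over 20 chromosomes. The share of MEF2C maxima inside it ran from 44.9% on X to 79.6% on chromosome 9 in MEF2C replicate 1, and from 48.0% on X to 78.9% on chromosome 15 in replicate 2. The ratio was above 1 on every chromosome, from 1.43 on chromosome 11 to 2.73 on chromosome 14 in MEF2C replicate 1, and from 1.48 to 2.65 on the same chromosomes in replicate 2. For H1.0 replicate 2 the lowest ratio was 2.50, again on chromosome 11. Its highest, 20.4, was on chromosome X, where 19 of the 292 maxima of MEF2C replicate 1 lay inside it. In MEF2C replicate 2, 11 of 563 did so, a ratio of 6.12. Across chromosomes the ratio fell as cover rose, with Spearman correlations of -0.92 and -0.96 for H1.0 replicate 1. For H1.0 replicate 2 they were -0.72 and -0.71. Cover is the denominator of this ratio and limits how high it can go. A negative correlation is therefore partly built in, and no conclusion is drawn from it. The covered shares of the 2 H1.0 lists ordered the 20 chromosomes alike (Spearman correlation 0.94, across chromosomes of the same libraries), and MEF2C peaks per Mb followed them too (Spearman correlation 0.88 with H1.0 replicate 1 in both MEF2C lists).

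**Figure D5:**
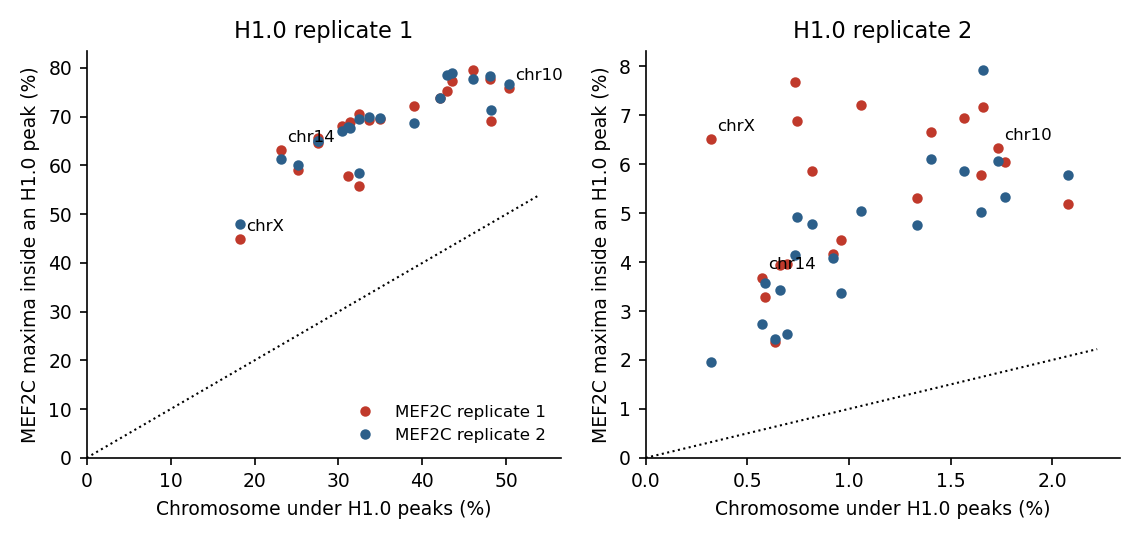
Percent of MEF2C maxima inside an H1.0 peak (y axis) against the percent of the chromosome under H1.0 peaks (x axis), 1 point per chromosome and MEF2C list (red replicate 1, blue replicate 2), for H1.0 replicate 1 (left) and replicate 2 (right). All points lie above the dotted line of equality, and at left chromosome X has the least H1.0 (18.3%) and the lowest shares (44.9% and 48.0%).

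Merging the 2 MEF2C lists gave 11286 regions that both held, with a median width of 2255 bp. Of these, 92.6% touched H1.0 replicate 1 and 11.4% touched H1.0 replicate 2, against 75.7% and 4.91% after shifting. By list, 1236 regions (10.95%) touched both H1.0 lists, 9219 (81.7%) replicate 1 alone, 48 (0.425%) replicate 2 alone and 783 (6.94%) neither. These shares are the background for the gene lists below. The 2503 regions of MEF2C replicate 1 alone touched H1.0 replicate 1 in 69.0% of cases, against 59.4% after shifting. The 16483 regions of MEF2C replicate 2 alone did so in 88.9%, against 71.9%. Regions of MEF2C replicate 1 alone had the highest ratio to H1.0 replicate 2, 4.12, at a median width of 888 bp.

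The strongest of the regions that touched both H1.0 lists, by mean rank in the 2 MEF2C lists, lay 2.49 kb from Gadd45b, a stress-response gene, at chr10:80934694-80943017. Its MEF2C maxima were 219 and 795 and both lay under H1.0 replicate 1, which covered 27.3% of the 8324 bp. The next lay over the start of Osbp, which encodes an oxysterol-binding protein (maxima 195 and 990), and inside Arid5b, an AT-rich interaction domain protein gene (175 and 512). Neither maximum of these 2 regions lay under H1.0, although the longer list covered 17.2% and 22.8% of their length. The others, in rank order, lay in Ptprr, 140 kb from Rap1b, 160 kb from Dact1, 8.50 kb from Trdmt1, and in Socs2, Fmn1 and Tbccd1. The regions in Ptprr, near Dact1 and near Trdmt1 were the 3 of the 10 whose maxima from both MEF2C lists lay under both H1.0 lists. In the region near Dact1, H1.0 replicate 1 covered 96.0% and replicate 2 18.3% of the bases. Of the 10 regions, 5 were on chromosome 10. That chromosome held 1138 of the 14912 MEF2C replicate 1 peaks and 2061 of the 27786 of replicate 2. The spread of the 10 over chromosomes was not tested.

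The strongest regions that touched neither H1.0 list were almost as strong. The first, chr10:80748599-80753101, lay 2.00 kb from Dot1l, which encodes the H3K79 methyltransferase, with maxima of 155 and 331 and the nearest H1.0 peak 4.24 kb away. Next were regions in Net1 (maxima 127 and 332) and in Ablim1, an actin-binding protein gene (70 and 475). The other 7 were 131 kb from Rasgrp1, over the start of Dact3, in Pde7a, 9.88 kb from Myl12b, in Uba2, in Ndc1 and 19.8 kb from Peli2. Their gaps to H1.0 replicate 1 ran from 0.328 kb (near Rasgrp1) to 4.59 kb (Uba2). All 10 had a mean rank percentile of at least 98.7, and the 10 on both H1.0 lists at least 99.8. Strong MEF2C signal thus occurred with and without H1.0 under it.

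The 5 shared regions farthest from H1.0 replicate 1 were weak. They lay 180 kb from Gm15319, 60.8 kb from Alkbh5, 4.87 kb from Speer4e, 52.7 kb from Prl2c3 and inside Efcab7, with gaps of 77.1, 31.7, 29.7, 25.6 and 17.6 kb. Their MEF2C maxima were 6 to 10 in replicate 1 and 12 to 19 in replicate 2. The first had 83.7% of its bases under H1.0 replicate 2, and the one near Prl2c3 had 42.9%.

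Of 21631 protein-coding genes, 27.5% had a region held by both MEF2C lists in the gene or within 5 kb. Of these 5952 genes, 93.3% had a region that touched H1.0 replicate 1 and 16.6% one that touched H1.0 replicate 2, and the lists below are read against these shares. A gene counted when any of its regions touched, so genes with many regions counted more readily. The lists were chosen with earlier results of these data known, and their counts are descriptions. Ankrd1, Csrp3, Kcnj2, Fosb, Bach1, Bach2, Hdac4 and Hdac5 are named as examples chosen after their values were seen. In the median protein-coding gene 42.0% of the body lay under H1.0 replicate 1, with 44.8% for genes with a shared MEF2C region and 40.4% for genes without.

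Of the MEF2 genes, class IIa deacetylases and cofactors, 9 of 12 genes had such a region, all 9 with one on H1.0 replicate 1 and 5 with one on H1.0 replicate 2. These 9 genes held 30 shared regions, of which 7 touched H1.0 replicate 2, against 11.4% of all 11286 shared regions. Hdac9 had 9 shared regions, all on H1.0 replicate 1. The 2 strongest were the start described above and one inside the gene with maxima of 48 and 290, and both MEF2C maxima of each lay under H1.0 replicate 1. Hdac4 had 3, and the one at chr1:92098875-92100827 was covered over 65.6% and 50.2% by the 2 H1.0 lists. Mef2c itself had 2 shared regions. The stronger, chr13:83602124-83605994 inside the gene, had maxima of 39 and 221 that lay outside H1.0, 19.8% of it being covered by the longer list. Only 19.4% of the Mef2c gene body lay under that list, less than in the median gene.

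Contractile and sarcomere genes held shared regions in 14 of 30 cases, 13 of them on H1.0 replicate 1 and 2 on H1.0 replicate 2. Actc1, cardiac alpha-actin, had 2 within 5 kb of the gene. The first (maxima 13 and 27) was covered over 96.0% by H1.0 replicate 1 and 68.5% by H1.0 replicate 2, and the second (14 and 44) over 96.9% and 0%. Myl7, the atrial myosin light chain, had 1 region 95.7% under H1.0 replicate 1 with maxima of 16 and 31, and Ttn, the titin gene, had 2, covered over 100% and 69.0%. Csrp3, a muscle LIM protein, was the gene whose only region touched neither H1.0 list, with the nearest peak of the longer list 0.865 kb away. Tnnt2, cardiac troponin T, had no shared region, with 0 and 1 MEF2C peaks in the 2 lists and 76.6% of the gene under H1.0 replicate 1. Myh6, the cardiac myosin heavy chain behind the reporter of this line, had 3 peaks in MEF2C replicate 1 and 0 in replicate 2, with 59.2% of the gene under H1.0 replicate 1.

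Of cardiac transcription factor and natriuretic genes 5 of 18 had a shared region, all 5 on H1.0 replicate 1 and 1 on H1.0 replicate 2. Ankrd1, a stretch-response gene of heart muscle, had a start region 94.2% under H1.0 replicate 1 with maxima of 27 and 129. The core factors Gata4 and Tbx5 had none, with 0 MEF2C peaks in replicate 1 and 1 and 2 in replicate 2, and H1.0 replicate 1 covered 37.5% and 36.0% of these genes. Of calcium handling and ion channel genes 8 of 16 had one, each on H1.0 replicate 1 and 2 on H1.0 replicate 2. Kcnj2, an inward rectifier potassium channel gene, had a start region covered over 95.4% and 19.2% by the 2 H1.0 lists.

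Of the AP-1 family, 10 of 14 genes had a shared region, 9 of them with one on H1.0 replicate 1 and 1 with one on H1.0 replicate 2. In 7 of the 20 regions of these genes (35.0%) neither MEF2C maximum lay under H1.0 replicate 1, against 21.3% of all 11286 shared regions, and in 12 both did. Among the other lists with more than 10 regions, sarcomere (29.2%) and housekeeping genes (26.7%) were also above that share. Calcium handling (20.0%), smooth muscle (18.2%), fibroblast (17.6%) and MEF2 and deacetylase genes (13.3%) were below it. These differences were not tested. At the start regions of Jun, Junb, Fos and Atf3 the region touched H1.0 replicate 1, over 84.0%, 17.8%, 54.7% and 50.1% of its length, but the maxima of both MEF2C lists lay outside it. The start region of Fosb (maxima 11 and 42) touched neither list. At Fosl2 the start region (14 and 35) was covered over 89.2% and 25.3%, and a second region outside the gene (42 and 187) over 100% and 0%, with both maxima of each region under H1.0 replicate 1. Bach2 and Bach1, which encode repressors related to AP-1, had 9 regions and 1, with both maxima under H1.0 replicate 1 in all but 1 region, of Bach2. None of the body of Junb lay under either H1.0 list.

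Fibroblast and extracellular matrix genes had shared regions in 13 of 24 cases, all 13 on H1.0 replicate 1 and 2 on H1.0 replicate 2. Vim, vimentin, had 1 at its start, 34.5% under H1.0 replicate 1 and with both maxima outside. Thy1, a fibroblast surface marker, had 2 just outside the gene, the stronger with maxima of 31 and 75 under H1.0 replicate 1. Col1a1 and Postn, a collagen and periostin, had none, with 0 peaks in MEF2C replicate 1 and 2 and 1 in replicate 2. Housekeeping genes had them in 11 of 15 cases, all on H1.0 replicate 1 and 0 on H1.0 replicate 2. Actb, beta-actin, had 1 region, 18.95% under H1.0 replicate 1. Of the linker histone genes 4 of 8 had one, H1f1, H1f2, H1f3 and H1f5 of the histone cluster on chromosome 13. H1f0, which encodes H1.0, had 0 and 1 MEF2C peaks and 64.0% of its body under H1.0 replicate 1. Smooth muscle and SRF-dependent actin genes had shared regions in 2 of 10 cases, both on H1.0 replicate 1 and 1 of them on H1.0 replicate 2. The lists of other lineages had them in these numbers: endothelial 3 of 8, above the share of all genes, skeletal muscle 1 of 10, blood and immune 1 of 8, neuronal 1 of 8 and hepatocyte 0 of 8. Of these 6 genes, 4 had a region on H1.0 replicate 1 and 0 on H1.0 replicate 2.

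The control lists overlapped the MEF2C lists of the knockdowns in their share on H1.0, with lists as deposited. Against the H1.0 replicate 1 list of control cells, 87.2% ± 4.5 (SD, n = 2) of control MEF2C peaks touched H1.0, 88.5% ± 3.5 (n = 3) after siJunb and 89.7% ± 2.5 (n = 3) after siH1f0. Against H1.0 replicate 2 the shares were 9.23% ± 0.82, 10.3% ± 1.9 and 9.94% ± 0.62. Exact two-sided permutation tests gave p between 0.4 and 0.8 for the 4 comparisons (adjusted p = 0.8 each, Benjamini-Hochberg), and 2 lists against 3 cannot give less than 0.2. With each list limited to as many of its strongest peaks as the shortest list has, the control lists lay below all siJunb lists on H1.0 replicate 2, by 2.54 percentage points on average (exact permutation p = 0.2, the smallest possible). H1.0 was not mapped after either knockdown in the lists used here. Ratios at MEF2C maxima inside H1.0 replicate 1 were 1.84 ± 0.018, 1.70 ± 0.14 and 1.84 ± 0.072 (same order).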

How the data were processed

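CUT&RUN peak lists of MEF2C, H1.0 and H3K9me3 were used as deposited. Reads were aligned with Bowtie2 to mm10 and peaks called with SEACR, per the submitters' processing notes; versions, use of the IgG samples as control, and handling of duplicates are not given in the sources used here. The deposited signal values, total and maximum per peak, are whole-number coverage and served only to rank peaks within a list. The number of reads aligned per list is unknown, so no counting interval is given.

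Peaks on chromosomes 1 to 19 and X were kept, and 39, 26, 764 and 255 peaks elsewhere were left out of the MEF2C and H1.0 lists (replicates 1 and 2 of each). An overlap was at least 1 bp. The background for touching was the exact mean over all circular shifts within chromosomes, each circle running from the first to the last peak of any list; 99 evenly spaced shifts gave the range. For maxima, the midpoint of the deposited maximum segment, it was the covered share of the peak's own chromosome. Stretches in which no peak can be called were not taken out of either background. A peak was near a start within 1 kb of a start listed by RefSeq (GRCm38.p6), which gave 21045 starts for 17274 of 21631 protein-coding genes, and near a gene end within 5 kb. Differences between groups of lists were tested by exact two-sided permutation over lists, with Benjamini-Hochberg adjustment, at a threshold of 0.05. Genes named are set examples of each list, the genes at the 10 highest-ranked shared regions on both or on neither H1.0 list, and the 5 shared regions farthest from H1.0 replicate 1; others are said to be chosen after their values were seen. The lists compared and the gene lists were chosen with earlier results of these data known. Replicate numbers and the lists' own names pair the MEF2C and H1.0 samples differently, so all 4 pairs were used.

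Alternatives covered peak thresholds, list length, the circle, chromosomes, the overlap that counts, peak width, windows, ranking, pairing and single lists. The calculations were tested on simulated data and run in Python 3.11.15 with numpy 2.4.6, pandas 2.3.3, scipy 1.17.1 and matplotlib 3.10.9.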

Additional observations from a re-analysis of the deposited data

How the results depend on the processing

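All ratios of MEF2C on H1.0 stayed above 1 in the 32 of 32 settings run for them, and their size moved with the choice of list. For touching H1.0 replicate 1 (1.31 as reported) the ratio was 1.68 with the stronger 50% of H1.0 peaks, 4.94 with that list limited to the covered length of the shorter, 1.81 when at least 50% of the MEF2C peak had to be covered, and 1.23 to 1.38 leaving out 1 MEF2C list. For maxima in H1.0 replicate 1 (1.84) it was 1.96 with the stronger 50% of MEF2C peaks, 2.36 with the stronger 50% of H1.0 peaks, 6.89 with the limited list, 1.88 with circles from base 1, 1.56 against positions 5 kb away, a setting chosen after seeing the data, and 1.83 to 1.85 leaving out 1 list. For H1.0 replicate 2 the touching ratio (2.71) was 4.29 with at least 50% covered and 2.24 to 3.18 leaving out 1 list, and the maxima ratio (4.22) was 5.35 with stronger H1.0 peaks, 2.57 against positions 5 kb away and 3.90 to 4.53 leaving out 1 list. Counting MEF2C replicate 1 peaks covered over at least 50% by replicate 2 in place of merged regions gave 87.1% and 8.29% on the 2 H1.0 lists. The strongest group exceeded the weakest by 14.6 to 16.7 points (H1.0 replicate 1) and 0.407 to 1.08 points (replicate 2) by list, and by 3.20 points for replicate 2 when ranked by total signal in place of maximum (0.744 as reported). Near starts the ratios ran from 1.72 to 1.75 and 3.86 to 4.46 by list, near gene ends from 1.72 to 1.75 and 3.45 to 3.59, and within 10 kb of a gene end the ratio for replicate 2 was 3.75.

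Of the 4 differences between control and knockdown lists, 3 turned their sign in some setting, and siJunb on H1.0 replicate 2 kept it. On H1.0 replicate 1, control minus siJunb was -1.37 points, with a replicate block 0.666, without control replicate 1 1.81, without siJunb replicate 3 0.666, and -4.55 at the lowest. Control minus siH1f0 was -2.59 points, -3.97 with the replicate block, 0.0393 with at least 50% covered, and -5.77 to 0.585 leaving out 1 list, the highest without control replicate 1. On H1.0 replicate 2 the siJunb difference ran from -2.16 to -0.402 and the siH1f0 difference from -1.29 to -0.129 leaving out 1 list; the replicate block gave -0.402 and -0.428, and at least 50% covered gave 0.544 for siH1f0. With lists of equal peak number these 2 differences were -2.54 (exact permutation p = 0.2, the smallest possible) and -1.68 points (p = 0.4). Nothing in the labels says that equal numbers share a culture or day, and 2 pairs are too few to check it. The replicate block uses replicates 1 and 2 alone, so it gives the same value as leaving out knockdown replicate 3. The causes of these shifts were not tested. Of 84 settings in all, 63 moved a value by less than the spread between lists or kept its sign, 15 moved it by more and 6 turned the sign. The setting for regions held by both MEF2C lists was judged otherwise, by a binomial interval over regions. That interval does not measure the spread between lists, and the setting is among the 15 for each H1.0 list. The replicate blocks are counted among the 84 although each repeats another setting.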

Other observations

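The weakest MEF2C peaks differed from the rest in H3K9me3. In the weakest of 10 rank groups, 5.16% (MEF2C replicate 1) and 6.51% (replicate 2) of maxima lay inside H3K9me3 replicate 1, against 2.01% and 1.58% in the strongest group. In H3K9me3 replicate 2 the shares were 8.38% and 9.90% in the weakest group and 4.16% and 3.71% in the strongest. Relative to the covered share of the chromosomes, the weakest group stood at 1.01 and 1.20 in H3K9me3 replicate 1. In H3K9me3 replicate 2 it stood at 0.529 and 0.605, still below that share.

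MEF2C regions that touched H1.0 replicate 2 but not replicate 1 were few and lay apart from genes more often. Of the 48 held by both MEF2C lists, 43.8% were outside genes, and of the 111 held by MEF2C replicate 1 alone 64.9% were. Among regions on H1.0 replicate 1 alone the shares were 29.1% and 32.2%, and among regions on neither H1.0 list 27.3% and 43.4%. No test was made of these differences.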
